A study of Mus musculus with 6 samples.

Results

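The genes described here are 9 members of the JAK-STAT pathway. These 5 STAT transcription factors (Stat3, Stat4, Stat5a, Stat5b and Stat6) and 4 feedback inhibitors (Socs1, Socs2, Socs3 and Cish) were read by gene symbol from a table of 23951 genes in whole mouse skin. All 9 were in the table and all 9 passed the filter of a mean of at least 0.1 FPKM (mapped fragments scaled for transcript length and for library total), so none was left out. The skin came from 3 control mice labelled JunB +/+ and 3 mice labelled JunB dep, in which JunB, a subunit of the AP-1 transcription factor, was deleted with a Cre recombinase driven by the keratin 5 promoter. The deletion therefore concerns keratinocytes, while the dermal, fat, muscle and immune cells of the sample keep the gene. All mice were C57Bl/6 of 6 to 7 months and are described as littermates, without saying which shared a litter, mice of both sexes were used in the study, and it describes the JunB dep skin as lesional. Libraries are named here by genotype and by the replicate number 0, 1 or 2 of the labels. The study compared these skins to ask how far the transcripts of JunB dep skin resemble those of atopic dermatitis, in which JAK-STAT signalling is a drug target.

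Cytokines that bind receptors without a kinase of their own activate receptor-bound Janus kinases, which phosphorylate STAT proteins. Phosphorylated STATs form dimers, enter the nucleus and bind DNA, most often at a short palindrome with TTC on one side and GAA on the other. SOCS genes and Cish are transcribed in response and their proteins block the receptor or the kinase, which makes their mRNA a common readout of recent signalling. In skin, STAT3 serves the IL-6, oncostatin M and IL-20 families, STAT5 serves IL-2, IL-7, TSLP and growth hormone, STAT6 serves IL-4 and IL-13, and STAT4 serves IL-12. STAT activity is set by phosphorylation, which mRNA does not measure.

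The motif TTCNNNGAA, which reads the same on both strands, was looked for in the RefSeq windows (GRCm38.p6) that run from 250 bases before to 50 bases after each annotated start. It was present in 8.3% of the 32851 windows of all genes, and 9.55% of all genes had it in a window. Among the members, all but Socs2 were matched, with 11 windows for 8 genes, and 2 of the 8, Socs3 and Cish, held the motif. A form with 4 bases between TTC and GAA was in 6.95% of all windows and in 0 of the members' windows. These 2 sequences are shown because they are the members with the motif, and because Socs3 and Cish, inhibitors tied to STAT3 and to STAT5, were at opposite extremes in 1 library of the values that follow. Capitals mark the motif, and positions are those of an exact match of each sequence to mm9, the build of the data. A match says only that the letters are there. The Socs3 sequence is the 250 bases before the RefSeq start (chr11:117830681-117830930, minus strand) with 1 match. The Cish sequence is 30 bases (chr9:107198987-107199016, plus strand) with 2 matches that lie just after the RefSeq start. The GENCODE annotation starts both genes farther upstream, Socs3 at 117831361 and Cish at 107198357, so by it both stretches lie inside the gene.
Socs3: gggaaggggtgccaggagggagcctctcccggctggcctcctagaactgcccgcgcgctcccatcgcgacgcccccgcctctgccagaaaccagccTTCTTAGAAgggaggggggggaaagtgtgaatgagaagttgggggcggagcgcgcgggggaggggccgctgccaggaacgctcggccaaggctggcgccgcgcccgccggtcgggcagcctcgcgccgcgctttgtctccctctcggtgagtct
Cish: gttTTCCTGGAAagTTCTTGGAAatctgtc

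One library stands apart and is named before the results. Junb itself was at 56.9 to 72.4 FPKM in the controls, and at 42.8 and 28.0 FPKM in JunB dep replicates 1 and 2. The library labelled JunB dep replicate 0 held 129.6 FPKM, which goes against its label, although non-keratinocytes keep the gene. The labels give the tissue as skin with no body site, so whether the site differed was not tested. In that library Krt13 and Krt4, keratins of mucosal epithelium, reached 1990 and 1356 FPKM, and both were below 1 FPKM in the other 5. The keratinocyte markers were above 0 in every library, except that Krt14 was listed at 0 in the library labelled JunB dep replicate 0, where a listed 0 can be a failed estimate. Most other keratinocyte markers also lay outside the range of the other 5 there. Krt15 was at 80.7 against 947 to 2388 FPKM, and Col17a1 was lowest. Krt1 was at 4466 against 446 to 958 FPKM, Dsg3 at 76.3 against 2.90 to 6.34 FPKM, and Krt5 was highest. Krt10 and Trp63 lay within the range of the other 5. The fold change of every member is given below with and without that library. FPKM sums ran from 481078 to 630363 per mouse and read totals are unknown, so no counting interval is given. The sample names fall into 2 number series, one with control replicates 0 and 1 and JunB dep replicate 0 and the other with control replicate 2 and JunB dep replicates 1 and 2. The labels do not say what the numbers mean.

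Of the 9 members, 2 had groups that did not overlap. Stat4 was higher in all 3 JunB dep mice than in any control, and Stat5b was lower in all 3. The largest mean difference was that of Socs3, 2.64-fold higher by the group means of log2(FPKM + 0.5), but 1 JunB dep mouse lay within the control range. None of the 9 passed the test across all genes, limma on log2(FPKM + 0.5) with Benjamini-Hochberg adjustment over 17021 genes. In that test 1.38% of all tested genes were called, all of them lower in the JunB dep libraries. At an unadjusted p below 0.05 there were 2 members, Stat4 and Stat5b, against 7.56% of all tested genes (1.43% higher and 6.13% lower). With a block on the number series this count was 4, with Socs1 and Socs3 added (limma log2 fold changes of 1.31 and 1.81), against 8.95% of all tested genes. With a block on the replicate number it was 0, against 5.71%. Means were higher for 7 of 9 members, against 53.4% of all tested genes. Here and below, counts of higher and lower means are of log2(FPKM + 0.5), on which Stat5a is slightly lower although its mean FPKM is slightly higher. Non-overlapping groups occurred in 14.8% of all tested genes, 5.62% higher and 9.16% lower. With 9 members that count is too small to be read against this share. Groups that do not overlap stay apart when a mouse is left out, so the count of such members can only stay or rise. Without the library labelled JunB dep replicate 0 it stayed at 2, Stat4 and Stat5b, against 24.1% of all tested genes (11.1% higher and 13% lower). In that limma fit 0 of 9 were called, against 0.77% of all tested genes (0.0646% higher and 0.705% lower), and 0 of 9 were at an unadjusted p below 0.05, against 8.1% (2.04% higher and 6.05% lower). For a single gene the exact permutation test, two-sided and with 3 mice a group, cannot go below p = 0.1.

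**Figure D1:**
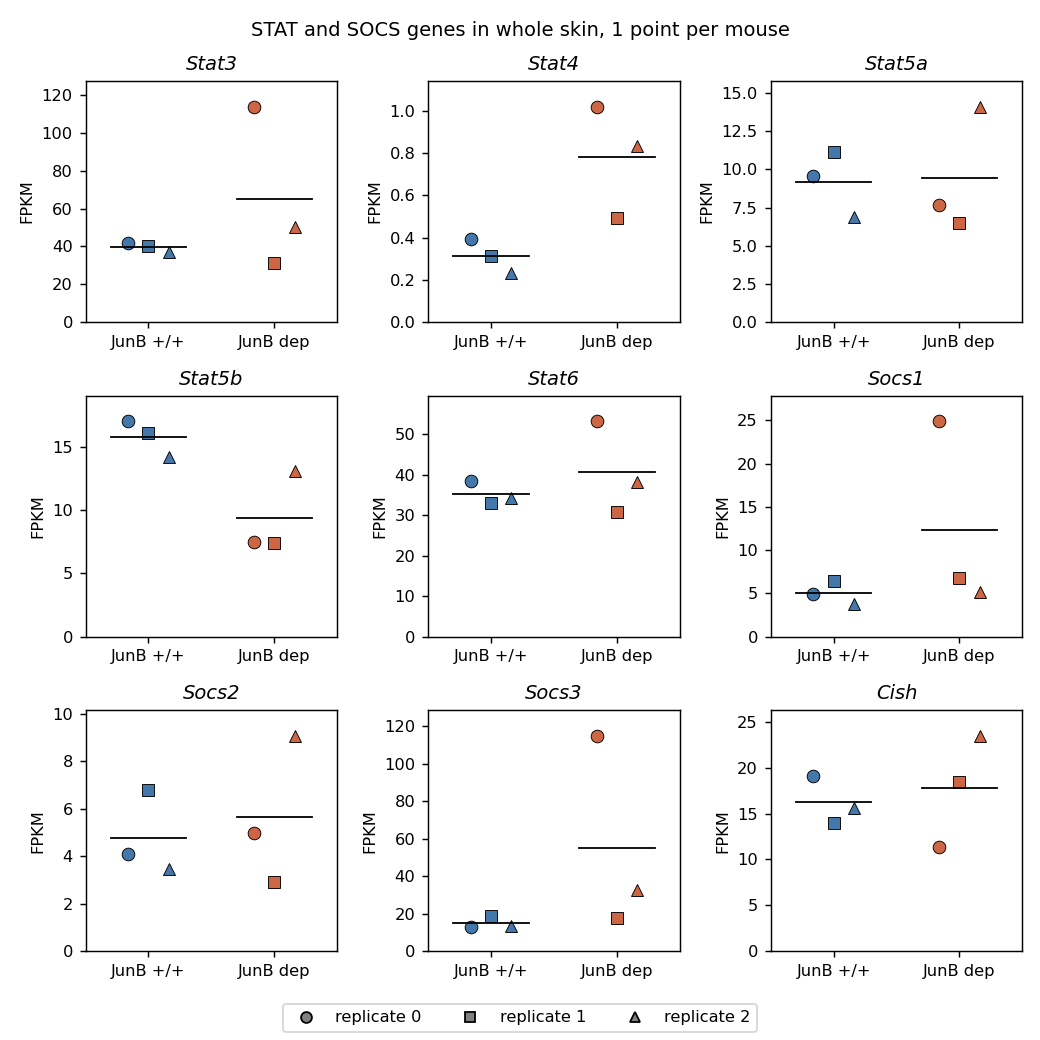
FPKM (y axis, from 0) of the 9 members in each mouse, JunB +/+ in blue and JunB dep in orange, with marker shape for the replicate number and a line at the group mean. Stat4 and Stat5b separate the groups, while Stat3, Stat6, Socs1 and Socs3 are highest in the library labelled JunB dep replicate 0.

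In control skin the STAT3 and STAT6 genes led. FPKM is per transcript length, so levels can be set side by side. Stat3 was at 39.6 ± 2.27 FPKM (SD, n = 3) and Stat6 at 35.3 ± 2.81 FPKM (SD, n = 3), with ranges that overlapped. Cish (16.2 ± 2.59), Stat5b (15.8 ± 1.44) and Socs3 (15.3 ± 3.21 FPKM) came next, with overlapping ranges between neighbours and a gap to Stat6 above. Stat5a, at 9.19 ± 2.17 FPKM, lay below all of them without overlap with Socs3. Socs1 and Socs2 (5.08 ± 1.34 and 4.77 ± 1.76 FPKM) did not differ beyond their spread, and Stat4 was lowest by far at 0.314 ± 0.0798 FPKM. In JunB dep skin Stat3 was again first and Stat4 last, but Socs3 stood second by its mean of 55.0 ± 52.3 FPKM (SD, n = 3), a spread nearly as wide as the mean. That place rested on the library labelled JunB dep replicate 0: without it the mean of Socs3 was 25.1 FPKM, behind Stat6 at 34.5 FPKM, and that of Stat3 was 40.9 FPKM. Stat5b, at 9.35 ± 3.28 FPKM, took a lower place in that order, beside Stat5a at 9.41 ± 4.10 FPKM, and both were at 10.3 FPKM without that library. Only the steps from Stat6 to Cish and from Socs2 to Stat4 were free of overlap between neighbours in the JunB dep mice.

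Stat3 (chromosome 11, 100746412 to 100800854, minus strand) encodes the factor that keratinocytes use for IL-6, IL-22 and oncostatin M signals. The controls, in the order of replicates 0, 1 and 2, had 41.7, 40.02 and 37.2 FPKM, and the JunB dep mice in the same order had 114, 31.5 and 50.4 FPKM. Replicate 0 was thus above every control, replicate 2 slightly above and replicate 1 below, so the groups overlapped. The log2 fold change was 0.51 (standard error, SE, 0.45, limma adjusted p = 0.725). Without the library labelled JunB dep replicate 0 it was 0.0091, so the mean difference rested on that mouse.

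Stat4 (chromosome 1, 52043992 to 52164032, plus strand) encodes the factor for IL-12 in T cells, NK cells and some myeloid cells. It was at 0.394, 0.315 and 0.234 FPKM in the controls and at 1.02, 0.494 and 0.833 FPKM in JunB dep replicates 0, 1 and 2. Every JunB dep mouse was above every control, although all levels were low. The log2 fold change was 0.64 (SE 0.22, limma p = 0.0282 unadjusted and 0.520 adjusted, exact permutation p = 0.1), and at this level the added 0.5 matters, since a pseudocount of 0.1 gave 1.06 and one of 1 gave 0.43. It was 0.50 without the library labelled JunB dep replicate 0. Within the number series the log2 difference was 0.83 in the first and 0.65 in the second. In whole tissue, more cells of a type and more RNA per cell cannot be told apart. The 8 T cell markers (Cd3d, Cd3e, Cd3g, Cd247, Cd4, Cd8a, Cd5 and Thy1) summed to 69.3 to 122 FPKM in the controls and 72.9 to 139 FPKM in the JunB dep mice. Thy1, which other cell types also express, made up most of each sum, and the other 7 summed to 17.6 to 41.1 FPKM in the controls and 15.5 to 28.2 FPKM in the JunB dep mice. All 8 were above 0 in every library, 0 of 8 separated the groups and 2 of 8 had a higher mean. The part of immune cell number in the Stat4 difference was not tested.

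Stat6 (chromosome 10, 127080042 to 127098013, plus strand) carries IL-4 and IL-13 signals. It was the steadiest member, the only one whose values spanned less than 1 log2 unit over the 6 mice, where 49% of all tested genes spanned more. It was at 38.4, 33.1 and 34.3 FPKM in the controls and at 53.1, 30.8 and 38.2 FPKM in the JunB dep mice. JunB dep replicate 0 was highest and replicate 1 lowest of all 6 mice. The log2 fold change was 0.17 (SE 0.23, limma adjusted p = 0.798), and -0.035 without that first library.

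Stat5a and Stat5b encode 2 closely related proteins and lie side by side with Stat3. Stat5b (100642045 to 100712038, minus strand), Stat5a (100720665 to 100746483, plus strand) and Stat3 fill 158810 bases of chromosome 11. The 3' ends of Stat5a and Stat3 overlap by 72 bases in the GENCODE annotation, and the sources used here do not say whether strand was used to assign reads there. Of the 50-base windows of the longest Stat5a transcript, 15.8% occur unchanged in a Stat5b transcript, and 11.8% the other way round. No other pair among the 36 pairs of members shares such a window. Reads from those stretches fit both genes, so each of the 2 levels is less certain than those of the other members.

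Stat5b had 17.0, 16.1 and 14.2 FPKM in the controls against 7.46, 7.44 and 13.1 FPKM in JunB dep replicates 0, 1 and 2. All 3 JunB dep mice were below all controls, 2 of them at about the same level and replicate 2 just under the lowest control. The log2 fold change was -0.77 (SE 0.26, limma p = 0.0248 unadjusted and 0.487 adjusted, exact permutation p = 0.1), or 0.587 of the control level. It was -0.64 without the library labelled JunB dep replicate 0 and -1.03 without JunB dep replicate 2. Within the number series it was -1.10 in the first and -0.50 in the second. Stat5a did not follow. It was at 9.57, 11.1 and 6.85 FPKM in the controls and 7.67, 6.46 and 14.1 FPKM in the JunB dep mice, and the groups overlapped. Its log2 fold change was -0.018 (SE 0.34, limma adjusted p = 0.987), and 0.083 without the library labelled JunB dep replicate 0.

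Skeletal muscle transcripts fell in the same libraries as Stat5b. All 15 muscle markers were lower in every JunB dep mouse than in any control, against 9.16% of all tested genes, and 11 of 15 were called lower by limma, against 1.38%. Over all genes the number called was 0 with either block, and also when any 1 of the controls or JunB dep replicate 1 was left out. Their summed level was 22074 to 31632 FPKM in the controls and 2306, 2040 and 4937 FPKM in JunB dep replicates 0, 1 and 2, with none at 0. The 2 mice with the least Stat5b were the 2 with the least muscle RNA. The part of muscle content in the Stat5b difference was not tested.

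Sums and ratios of members within a library were also taken, picked once the values were known. Of 9 such measures 3 separated the groups, and the other 6 overlapped with exact permutation p from 0.2 to 0.6. Stat5b made up 64.0%, 59.1% and 67.4% of the summed Stat5a and Stat5b FPKM in the controls and 49.3%, 53.6% and 48.2% in the JunB dep mice, so the groups did not overlap (exact permutation p = 0.1, the smallest possible). This share is set within a library and so does not depend on scaling, but it does depend on how shared reads were assigned. Stat3 made up 38.9% to 40.1% of the summed FPKM of the 5 STAT genes in the controls and 62.2%, 41.1% and 43.2% in JunB dep replicates 0, 1 and 2, again with no overlap and again at the smallest possible exact permutation p of 0.1. In JunB dep replicates 1 and 2 that share was only slightly above the control range.

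**Figure D2:**
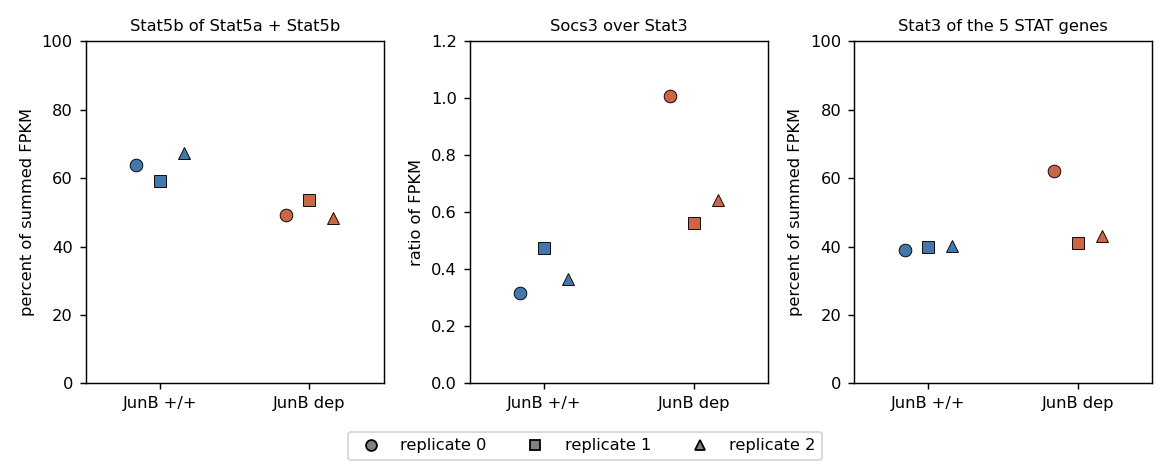
Ratios within each library (y axes from 0), with 1 point per mouse: Stat5b as a percent of the summed Stat5a and Stat5b FPKM, Socs3 FPKM over Stat3 FPKM, and Stat3 as a percent of the summed FPKM of the 5 STAT genes. In all 3 plots the JunB dep mice lie on one side of the controls, with Stat5b shares of 48.2% to 53.6% against 59.1% to 67.4%.

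Among the inhibitors, Socs3 (chromosome 11, 117827393 to 117831361, minus strand) limits signalling by the receptor chain gp130 that IL-6 and its relatives share, and is itself a STAT3 target. It was at 13.2, 18.97 and 13.6 FPKM in the controls and at 115, 17.7 and 32.5 FPKM in the JunB dep mice. Replicates 0 and 2 were above every control and replicate 1 lay under the highest control. The log2 fold change was 1.40 (SE 0.66, limma adjusted p = 0.718, exact permutation p = 0.2), and 0.65 without the library labelled JunB dep replicate 0. Within the number series it was 2.82 in the first and 0.80 in the second. Set against Stat3 in the same library, a ratio chosen after the values were seen, Socs3 was at 0.317, 0.474 and 0.366 of the Stat3 level in the controls and at 1.01, 0.563 and 0.645 in the JunB dep mice. On that ratio all 3 JunB dep mice exceeded all controls (exact permutation p = 0.1, the smallest possible). In JunB dep replicate 1 Socs3 itself lay within the control range and Stat3 was the lowest of the 6 mice, so the ratio was high there through Stat3.

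Neutrophil transcripts were uneven across the same mice. The 7 markers found in the table summed to 1471, 31.8 and 14.5 FPKM in the controls against 25018, 23.5 and 137 FPKM in JunB dep replicates 0, 1 and 2. Of these markers S100a9 was listed at 0 in JunB dep replicate 0, and 1 of 7 was at 0 in JunB dep replicate 1. These sums rested on S100a8, at 24456 FPKM in JunB dep replicate 0, and in the other libraries on S100a8 and S100a9 together, genes that inflamed keratinocytes are also known to express. The other 5 markers summed to 28.2, 3.52 and 2.50 FPKM in the controls and 562, 2.35 and 5.58 FPKM in the JunB dep mice. Control replicate 0, with the second highest sum on both counts, had the lowest Socs3 level of the 6 mice. The part of neutrophil content in the Socs3 and Stat3 values was not tested.

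Socs1 (chromosome 16, 10783901 to 10785629, minus strand), which inhibits the Janus kinases themselves, was at 4.91, 6.49 and 3.83 FPKM in the controls and 24.9, 6.76 and 5.22 FPKM in the JunB dep mice. Replicate 0 was far above every other library, replicate 1 was just above the highest control and replicate 2 lay within the control range. The log2 fold change was 0.90 (SE 0.59, limma adjusted p = 0.722) and 0.24 without the first library.

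The 2 inhibitors best known as STAT5 targets did not share the peak in that library. Cish (chromosome 9, 107198357 to 107205115, plus strand), which binds cytokine receptors at STAT5 docking sites, was at 19.1, 13.99 and 15.7 FPKM in the controls and 11.3, 18.4 and 23.4 FPKM in JunB dep replicates 0, 1 and 2. The library labelled JunB dep replicate 0 had the lowest Cish level of the 6 mice, where it had the highest Socs3 level. Socs3 was 10.1 times as abundant as Cish there and 0.694 to 1.39 times as abundant in the other 5. Cish had a log2 fold change of 0.08 (SE 0.29, limma adjusted p = 0.935), with a log2 difference of -0.51 in the first number series and 0.40 in the second. Leaving out the library labelled JunB dep replicate 0 gave 0.36.

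Socs2 (chromosome 10, 94847996 to 94879814, minus strand), the main inhibitor of growth hormone signalling, was at 4.09, 6.77 and 3.46 FPKM in the controls and 4.96, 2.93 and 9.07 FPKM in the JunB dep mice. The JunB dep mice held both the lowest and the highest value, and the log2 fold change was 0.15 (SE 0.44, limma adjusted p = 0.916). Without the library labelled JunB dep replicate 0 it was 0.17. Fat content also varied, and the 8 adipocyte markers summed to 3022, 5931 and 1939 FPKM in the controls and to 79.6, 3017 and 15255 FPKM in JunB dep replicates 0, 1 and 2, with none at 0. JunB dep replicate 2 thus had the highest level of Socs2, of Stat5a and of all these adipocyte markers but Lep. The adipocyte sum was lowest in JunB dep replicate 0, where neither Socs2 nor Stat5a was lowest. Endothelial markers, 6 in number, summed to 73.3, 72.9 and 53.4 FPKM in the controls and 55.0, 29.6 and 112 FPKM in the JunB dep mice. Their sum was highest in JunB dep replicate 2 and lowest in replicate 1, as were Socs2 and Stat5a. The part of fat or endothelial content in these values was not tested.

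**Figure D3:**
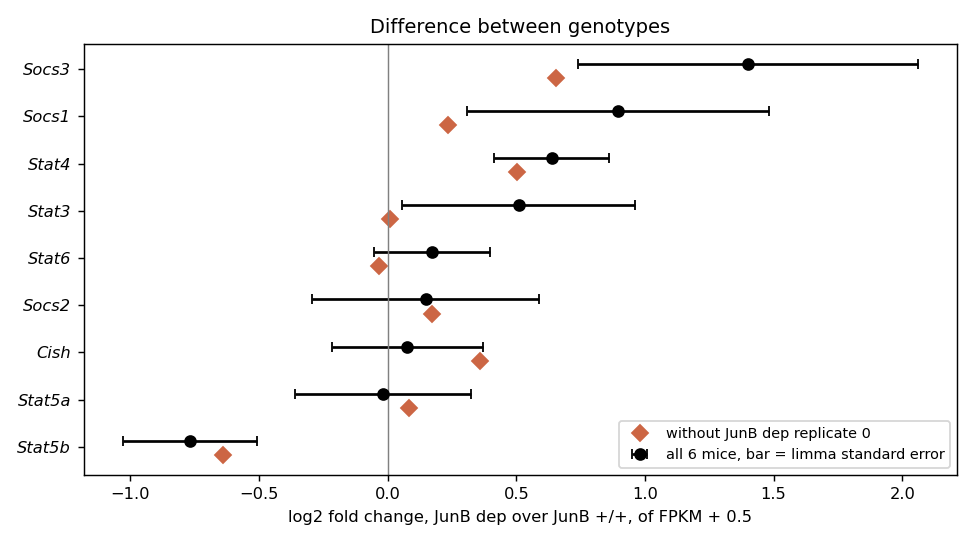
Log2 fold change of FPKM + 0.5, JunB dep over JunB +/+ (x axis), for the 9 members, with black points and limma standard errors from all 6 mice and orange diamonds without JunB dep replicate 0. Leaving out that library moves Socs3 from 1.40 to 0.65 and Stat3 from 0.51 to 0.0091, and Stat5b only from -0.77 to -0.64.

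Over the 6 mice the members thus varied in different patterns. The library labelled JunB dep replicate 0 was the highest of the 6 for 5 members, Stat3, Stat4, Stat6, Socs1 and Socs3, where it was the highest for 29.7% of all tested genes. It was the lowest for Cish alone, where 32% of all tested genes were lowest in it. JunB dep replicate 2 was the highest for Stat5a, Socs2 and Cish. JunB dep replicate 1 was the lowest for Stat3, Stat5a, Stat5b, Stat6 and Socs2.

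To show what else varied like each member, genes were ranked by the root mean square difference between log2(FPKM + 0.5) profiles over the 6 mice, each centred on its control mean. Socs3 was closest to Ptges, the inducible prostaglandin E synthase, at a difference of 0.086. Ptges was at 14.3, 16.6 and 12.9 FPKM in the controls and 110.3, 17.1 and 31.2 FPKM in JunB dep replicates 0, 1 and 2. The next genes were farther off, Wdr92 at 0.21 and Slc10a6 at 0.23. Stat3 was closest to Itga6, an integrin chain of basal keratinocytes (0.082), Samhd1 (0.084) and Fam115c (0.092). Socs1 was closest to the protease inhibitor gene Cstb (0.11), Ier5l (0.14) and Hilpda (0.15). Stat4 was closest to 4732490B19Rik (0.11), Tcirg1 (0.11) and Afap1 (0.12). The nearest genes to Stat5b were Sema3c (0.084), Fut8 (0.087) and Kank2 (0.088). Those nearest to Stat5a were Parp10 (0.081), Cyb5 (0.084) and Tnfaip8l3 (0.11), those to Socs2 Pde1a (0.14), Rbpms (0.14) and Npc2 (0.16), and those to Cish Dqx1 (0.068), Tctn1 (0.098) and Prox2 (0.10). None of the 24 genes was among the 3 closest of more than 1 of these 8 members. With 6 mice and 17021 genes some close profiles are found for any gene, so the list is a description.

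The rest of the pathway was read from hand-written lists of 121 genes, of which 108 passed the filter. None of the 108 was called by limma, against 1.38% of all tested genes. At an unadjusted p below 0.05 there were 5, all lower, against 7.56% of all tested genes (1.43% higher and 6.13% lower). That count was 3 without control replicate 0, 10 without JunB dep replicate 1, 20 without JunB dep replicate 2 and 15 with a block on the number series, with none called in any of these fits. Over all 17021 tested genes it was 1287 in the main fit and, in the same order, 827, 1090, 3130 and 1523. The rise to 20 without JunB dep replicate 2 thus came with a rise over the whole table. The groups did not overlap for 11 of 108, 4 higher and 7 lower, a share below the 14.8% of all tested genes. The median log2 fold change was 0.15, beside 0.03 over all tested genes, and it was -0.06 without the library labelled JunB dep replicate 0.

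Among the SOCS genes outside the 9, Socs5 was at 5.97, 5.97 and 6.36 FPKM in the controls and 13.0, 8.35 and 6.63 FPKM in the JunB dep mice, and Socs7 at 7.95, 6.84 and 7.45 against 5.57, 5.67 and 5.28 FPKM. Of the 6 STAT and SOCS genes outside the 9, these 2 were the ones that separated the groups, Socs5 upward and Socs7 downward. Over all tested genes 5.62% were separated upward and 9.16% downward. The log2 fold changes of Socs5 and Socs7, 0.52 and -0.40, were not called (adjusted p = 0.722 and 0.681 from limma). Of the 4 Janus kinases none separated the groups, and their median log2 fold change was 0.037, or -0.071 without the library labelled JunB dep replicate 0. Jak1 was at 28.3 to 32.4 FPKM in the controls and 45.8, 17.8 and 25.7 FPKM in JunB dep replicates 0, 1 and 2, and Jak2 at 6.99 to 7.74 against 13.6, 5.97 and 6.98 FPKM.

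For the ligands that act through STAT3 the list median of 1.2 became -0.10 without the library labelled JunB dep replicate 0. Of 14 tested, 11 had a higher mean, against 53.4% of all tested genes. The same number were highest in the library labelled JunB dep replicate 0, against 29.7% of all tested genes. The median of the 14 against the control mean was 3.06 on the log2 scale there, -0.13 in JunB dep replicate 1 and -0.02 in replicate 2. Il24, an IL-20 family cytokine, was at 102.5 FPKM in the first library, 0.0428 FPKM in JunB dep replicate 2 and listed at 0 in the other 4. Lep, the fat hormone leptin, was at 73.9, 125 and 35.0 FPKM in the controls and 0.0275, 18.1 and 33.1 FPKM in the JunB dep mice. The 16 receptor chains for STAT3 did not follow, with 7 higher and 9 lower means and a median of -0.05 in the first library. Their largest differences were those of Cntfr and Il20ra. Cntfr was at 4.204, 3.44 and 16.1 FPKM in the controls and 25.4, 40.8 and 5.18 FPKM in the JunB dep mice (log2 fold change 1.44, adjusted p = 0.722 from limma, and 1.18 without the first library). Il20ra was at 16.1, 15.6 and 10.7 against 2.15, 6.21 and 12.2 FPKM (log2 fold change -1.24, adjusted p = 0.707 from limma, and -0.64 without the first library). Both overlapped between the groups.

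Known STAT3 targets outside the 9 had the same concentration in 1 library. All 13 had a higher mean, against 53.4% of all tested genes. Of the 13, 12 were highest in the library labelled JunB dep replicate 0, against 29.7% of all tested genes. The list medians against the control mean were 1.81, -0.17 and 0.18 in JunB dep replicates 0, 1 and 2. Saa3, an acute-phase gene, was at 9.67, 2.09 and 1.31 FPKM in the controls and 3720, 24.0 and 3.37 FPKM in the JunB dep mice. Timp1 was at 2.31 to 3.04 FPKM in the controls and 107, 3.00 and 3.90 FPKM in the JunB dep mice. Without the first library the median of the list was 0.11. The neutrophil marker sum, given above, was also highest in that library, and the part of cell content in these target values was not tested.

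**Figure D4:**
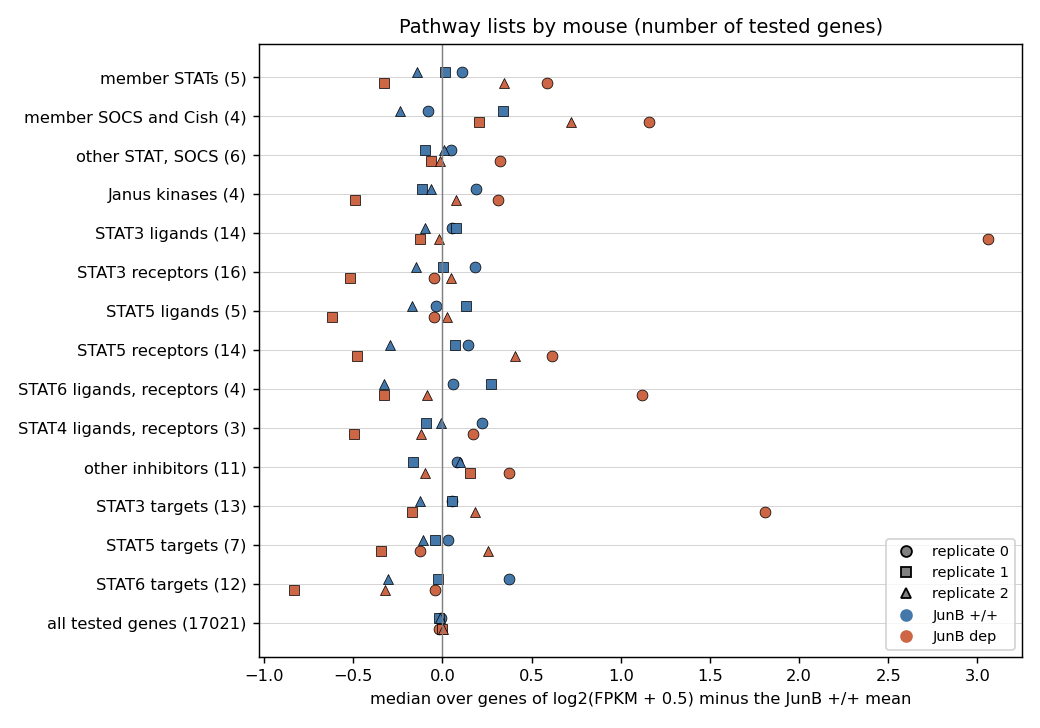
Median over the tested genes of each list (their number in brackets) of log2(FPKM + 0.5) minus the JunB +/+ mean (x axis), with 1 point per mouse. The library labelled JunB dep replicate 0 lies at 3.06 for STAT3 ligands and 1.81 for STAT3 targets, while its value over all tested genes is -0.02.

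On the STAT5 side, 4 of 5 tested ligands had a lower mean, with a list median of -0.17, or -0.23 without the library labelled JunB dep replicate 0. Thpo was at 2.40, 1.79 and 1.65 FPKM in the controls and 0.604, 0.396 and 1.33 FPKM in the JunB dep mice, with no overlap (log2 fold change -0.99, adjusted p = 0.447 from limma). Il15 was at 4.13 to 7.81 FPKM against 2.24, 4.03 and 5.86 FPKM, with overlap. Of 14 receptor chains 9 had a higher mean, and Ghr, the growth hormone receptor, was at 57.9, 70.5 and 38.6 FPKM in the controls and 8.47, 28.0 and 72.3 FPKM in the JunB dep mice. Epor ranged from 0.354 to 4.77 FPKM with the highest value in control replicate 0 and the lowest in the library labelled JunB dep replicate 0. Of 7 known STAT5 targets 4 had a higher mean. Bcl6, a repressor that STAT5 is known to keep down, was at 34.8, 42.8 and 34.4 FPKM in the controls and 26.7, 23.9 and 26.8 FPKM in the JunB dep mice. It was lower in all 3 and close together in them (log2 fold change -0.52, unadjusted p = 0.0144 and adjusted p = 0.369 from limma). Igfals was at 4.04 to 9.46 FPKM against 0.953, 4.54 and 10.7 FPKM.

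On the STAT6 side, the receptor chains Il4ra and Il13ra1 were at 76.7 and 87.4 FPKM in the library labelled JunB dep replicate 0. They were at 9.20 to 16.5 and 16.5 to 30.5 FPKM in the other 5, so the controls and JunB dep replicates 1 and 2 overlapped. Known STAT6 targets had 8 of 12 lower means and a median of -0.45, which was -0.62 without the first library. Fcer2a, the low-affinity IgE receptor, was at 5.72, 1.54 and 2.81 FPKM in the controls and 0.132, 0.589 and 0.400 FPKM in the JunB dep mice. It separated the groups with a log2 fold change of -2.03 and was not called (adjusted p = 0.163 from limma). Retnla was at 276.8 to 502 FPKM in the controls and 2.02, 232 and 334 FPKM in the JunB dep mice. The adipocyte markers, given above, were also lowest in the library with the least Retnla. Beside these values stand the macrophage markers, of which 1 of 8 had a higher mean on the log2(FPKM + 0.5) scale. They summed to 209 to 346 FPKM in the controls and 513, 95.4 and 236 FPKM in JunB dep replicates 0, 1 and 2, with none at 0. Cd14 alone was at 170, 2.91 and 17.8 FPKM in those 3 mice, against 4.79 to 9.96 FPKM in the controls. Mrc1 is on both the macrophage and the STAT6 target list. The part of adipocytes or macrophages in the STAT6 target values was not tested.

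Of the 3 tested genes of the STAT4 axis, Il12rb2 and Il12rb1, the chains of the IL-12 receptor, were at 2.37 to 5.19 and 0.224 to 0.243 FPKM in the controls and at 0.630 to 3.27 and 0.175 to 0.537 FPKM in the JunB dep mice, so neither separated the groups as Stat4 did. Of 11 inhibitors outside the SOCS family 7 had a higher mean and none separated the groups. The tyrosine phosphatase gene Ptpn1 was at 15.2 to 23.9 FPKM in the controls and 41.7, 27.4 and 22.1 FPKM in the JunB dep mice, and Usp18 at 8.37 to 15.3 against 1.68, 11.97 and 19.9 FPKM.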

How the data were processed

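Poly(A) RNA of whole skin from 3 JunB +/+ and 3 JunB dep mice was sequenced with strand-specific libraries. The authors aligned the reads to mm9 with TopHat2 2.0.10, Bowtie 1.0.0 and SAMtools 0.1.19 through the nextpresso pipeline, with the iGenomes annotation, and deposited a table of FPKM values, 1 per gene in each mouse. The submitters' processing notes also name Cufflinks. For the FPKM values, the tool, the handling of shared reads and any rescaling were not given in the sources used here. Read counts, which the authors tested with DESeq2, were not analysed here. Depth is unknown, but among 671 genes below 0.15 FPKM in every mouse, 8.64% to 13.6% shared 1 ratio to control replicate 0, by which the scaling totals were 0.955 to 1.14 times its own.

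From the FPKM values, log2(FPKM + 0.5) entered limma 3.58.1 (R 4.3.3), fitted without a block and with a prior variance that depends on mean level. Tests were two-sided. Genes whose mean reached 0.1 FPKM, 17021 in all, were tested. P-values were adjusted by Benjamini-Hochberg over those genes with a threshold of 0.05, and fold changes understate those of low genes. The mice are described as littermates without saying which shared a litter, so litter was not modelled and p-values measure the spread between these 6 mice. The code was tested on data with known answers. The members and gene lists were chosen with earlier results of these data known. Named by rule were the members, Junb, up to 5 called genes and the 2 largest differences of each pathway list, the 3 genes most like each member that spans over 1 log2 unit, and cell type markers that move with a member. The ratios between members were chosen after their values were seen. Ly6g was not analysed here. Positions came from the GENCODE vM1 annotation of mm9. Alternatives were pseudocounts of 0.1 and 1, other filters, median-ratio and quantile scaling, no trend, robust limma, blocks on the replicate number and on the number series, an adjusted p of 0.1 and each mouse left out. Python 3.11.15, pandas 2.3.3 and matplotlib 3.10.9 made the tables and plots.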

Additional observations from a re-analysis of the deposited data

How the results depend on the processing

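No member and no gene of the pathway lists was called under any of the alternatives run, and the lowest adjusted p of a member was 0.0785, for Stat5b without JunB dep replicate 2. Over all genes the 235 calls became 0 with a replicate block and 0 with a block on the number series, and ranged from 0 to 251 when each mouse was left out, with 0 without control replicate 0, 1 or 2 or JunB dep replicate 1 and 131 (11 of them higher) without JunB dep replicate 0. Whether the replicate numbers pair the mice is not stated. The deviations of same-numbered mice correlated at 0.12, -0.23 and -0.43 and not every mouse correlated best with its own number. With 3 mice a group these values cannot decide the question. Of 143 member values under alternatives, 131 kept their direction and 12 did not, all in members with small differences. Stat5a changed from -0.018 to 0.0078 after quantile normalization, to 0.025 with the number-series block and to between -0.34 and 0.20 when a mouse was left out. Cish was at -0.055 with the number-series block and between -0.15 and 0.36 when a mouse was left out, Socs2 between -0.23 and 0.51 and Stat6 between -0.035 and 0.35. Over all alternatives the log2 fold change ranged from 0.0091 to 0.93 for Stat3, from 0.24 to 1.31 for Socs1 and from 0.65 to 1.99 for Socs3. Stat4, whose mean is below 1 FPKM, was not tested with the filter at 1 FPKM, and it moved with the pseudocount from 0.43 to 1.06. Leaving out JunB dep replicate 0 was also tried on the count of members without overlap, an alternative chosen after seeing the data. That count stayed at 2. It could only stay or rise, so it is no check on Stat4 or Stat5b. The cause of these changes was not tested.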
